A study of Homo sapiens with 8 samples.

Results

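Antigen presentation by the major histocompatibility complex (MHC) was followed through 9 genes in a nascent-RNA experiment on the human precursor B-cell leukaemia line NALM6: the class I heavy chains HLA-B, HLA-C and HLA-E, their light chain B2M, the class II chains HLA-DRA, HLA-DRB1 and HLA-DPA1, the invariant chain CD74 and the class II regulator CIITA. The genes were chosen by name, as a fixed list, from the 27410 genes of the all-read table. Each was read from the transcript row with the highest mean among the rows that carry its symbol. None of the 9 genes passed the test in any comparison or measure. What set them apart from each other was their level and the share of converted bases in their reads.

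NALM6 is an established line in which HMGN1, a small nucleosome-binding chromatin protein, was expressed from a doxycycline-inducible construct. The induced mutant group (2 libraries, A and B) carried the HMGN1 form S20,24E, described by the labels as deficient in nucleosome binding, and received doxycycline at 100 ng/ml for 6 h. The induced wild type group (3 libraries, A to C) carried wild-type HMGN1 and received the same doxycycline for the same time. The vehicle group (3 libraries, A to C) was the wild-type line with vehicle in place of doxycycline for 6 h. All 8 libraries were exposed to 4-thiouridine at 100 µM for the last 5 h and were made from 4 µg of RNA, so labelling is common to all groups. In SLAM-seq, 4-thiouridine taken up into RNA made during the labelling appears in the sequence as T-to-C conversions once a thiol reaction has modified it. No mutant-line libraries with vehicle were analysed here. In the comparison of induced mutant with vehicle, the line and the doxycycline therefore cannot be told apart. In that of induced wild type with vehicle, the doxycycline itself and the HMGN1 it induces cannot be told apart. Between the induced groups the same holds for the HMGN1 form and the line that carries it. Replicates are called biological in the labels, which do not mention separate cultures, and the p-values therefore measure only the spread between these libraries, which may be technical.

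MHC class I molecules pair a polymorphic heavy chain with beta-2-microglobulin and show peptides from inside the cell to CD8+ T cells and natural killer cells. Class II molecules pair an alpha with a beta chain, are escorted by the invariant chain CD74, and show peptides from endocytosed proteins to CD4+ T cells. Transcription of class II genes depends on the coactivator CIITA, which is recruited to a conserved promoter module bound by RFX, CREB-family and NF-Y factors. NF-Y recognises the CCAAT sequence, and class I promoters carry a related module that is served by NLRC5.

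Promoter stretches are shown for 5 members because that shared module is what joins the class I, B2M and class II genes. They come from RefSeq (GRCh38.p14), where 6 of the 9 members were matched by symbol (HLA-B, HLA-C, B2M, HLA-DRB1, CD74 and HLA-DPA1, the last with more than 1 entry and not shown). HLA-E, HLA-DRA and CIITA were not matched. Each stretch covers 160 bases, from position -190 to position -31 relative to the annotated start, on the gene's strand. HLA-B is at chr6:31357210-31357369 and HLA-C at chr6:31272123-31272282, both on the minus strand, B2M at chr15:44711327-44711486 on the plus strand, HLA-DRB1 at chr6:32589879-32590038 on the minus strand and CD74 at chr5:150412941-150413100 on the minus strand. Capitals mark every match of the motifs searched, on either strand.
HLA-B: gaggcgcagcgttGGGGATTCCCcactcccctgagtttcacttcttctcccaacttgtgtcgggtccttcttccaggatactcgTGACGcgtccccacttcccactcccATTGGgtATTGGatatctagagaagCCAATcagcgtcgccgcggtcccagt
HLA-C: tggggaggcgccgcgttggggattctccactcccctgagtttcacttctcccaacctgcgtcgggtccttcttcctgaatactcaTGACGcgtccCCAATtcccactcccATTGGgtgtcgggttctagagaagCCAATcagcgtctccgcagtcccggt
B2M: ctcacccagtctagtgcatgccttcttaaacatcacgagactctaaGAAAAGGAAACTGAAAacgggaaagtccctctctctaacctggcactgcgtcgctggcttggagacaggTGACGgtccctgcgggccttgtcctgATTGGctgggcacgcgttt
HLA-DRB1: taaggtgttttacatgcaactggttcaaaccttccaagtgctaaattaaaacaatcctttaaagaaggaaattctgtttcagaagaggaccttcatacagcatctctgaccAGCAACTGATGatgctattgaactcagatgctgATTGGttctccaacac
CD74: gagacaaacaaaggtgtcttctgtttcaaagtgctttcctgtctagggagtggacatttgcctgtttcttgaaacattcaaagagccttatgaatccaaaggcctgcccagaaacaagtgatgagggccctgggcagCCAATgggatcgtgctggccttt
The CCAAT box (ATTGG or its complement) was present in 5 of the 5 stretches, with 3 matches each in HLA-B and HLA-C, against 24.6% of 35116 RefSeq promoters over the same window. The core of the cyclic AMP response element (TGACG) was present in HLA-B, HLA-C and B2M, 3 of 5 stretches, against 14.9% of promoters. The X-box core, the long run of capitals in HLA-DRB1, matched there and in 0.177% of promoters. For NF-kappaB only a single exact word of 10 bases was searched, the first run of capitals in HLA-B. It matched there and in 0.0342% of promoters. Each motif was searched as a single fixed pattern, so related spellings of these sites, in the members or in other promoters, were not counted. The interferon-response core, 2 overlapping matches that make the first run of capitals in B2M, matched there and in 1.85% of promoters. No other motifs overlapped. These are matches of letters in the reference sequence, not measured binding.

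Library depth ran from 7.99 to 17.7 M reads. The mean over genes of the share of converted bases, weighted by reads, is called the library conversion rate here. It was 4.64% and 3.41% in induced mutant A and B and 4.36%, 3.39% and 5.20% in induced wild type libraries A to C. In vehicle A, B and C it was 2.64%, 3.67% and 4.50%. The spread within each group was wider than the distance between groups. In induced mutant A the 10 most abundant genes took 11.1% of gene reads, against 6.25% to 9.13% in the other libraries. HMGN1 stood at 223 and 199.5 CPM in induced mutant libraries, 252, 217 and 317 CPM in induced wild type libraries and 191, 153 and 145 CPM in vehicle libraries. Of 12 precursor B-cell markers, 12 had a mean of at least 1 CPM, with sums of 1568 to 1704 CPM in induced mutant, 1679 to 1852 CPM in induced wild type and 1766 to 1851 CPM in vehicle libraries. Among markers of other cells that could bring MHC transcripts, 1 of 8 T or NK cell, 1 of 5 dendritic cell, 0 of 6 erythroid or fibroblast and 2 of 8 monocyte markers reached 1 CPM, and CD3D, CD2, CD7, KLRD1, CLEC10A, HBB, COL3A1, FCGR3A, S100A8 and S100A9 were at 0. The monocyte sum, 341 to 428 CPM in induced mutant, 362 to 437 CPM in induced wild type and 419 to 514 CPM in vehicle libraries, was nearly all CSF1R, at a mean of 415 CPM with a conversion rate of 0.0119%. The sums of the other 3 lists stayed between 0.450 and 3.38 CPM in every library.

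HLA-B, a classical class I heavy chain that presents peptides to CD8+ T cells, was the most abundant class I heavy chain. In all reads, given as reads scaled to the library total (CPM), it had 385 and 531 CPM in induced mutant A and B, 545, 563 and 431 CPM in induced wild type libraries A to C, and 661, 564 and 522 CPM in vehicle A, B and C. The lowest library was induced mutant A and the highest vehicle A, and the groups overlapped in every comparison. The log2 fold change was -0.36 (SE 0.20, 95% interval -0.80 to 0.09) for induced mutant against vehicle, -0.19 (SE 0.18, -0.58 to 0.21) for induced wild type against vehicle and -0.17 (SE 0.20, -0.61 to 0.27) for induced mutant against induced wild type. These and all fold changes below are limma estimates from 1 model over the 8 libraries. None of the 3 intervals left out 0, and they allow HLA-B to be lower by as much as 0.80 on the log2 scale or higher by as much as 0.27. In bulk RNA, fewer cells with a transcript and less of it per cell cannot be told apart.

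HLA-C, the other classical heavy chain in the list and also a ligand of killer-cell receptors, ran parallel to HLA-B. It had 237 and 306 CPM in induced mutant libraries, 339.8, 351 and 264 CPM in induced wild type libraries and 386, 358 and 309 CPM in vehicle libraries. Both induced mutant values lay below all 3 vehicle values, the upper by less than 3 CPM, and the fold change was -0.38 (SE 0.19, 95% interval -0.79 to 0.04). The ratio of HLA-B to HLA-C was 1.63 and 1.73 in induced mutant, 1.60, 1.60 and 1.63 in induced wild type and 1.71, 1.57 and 1.69 in vehicle libraries, so the pair kept nearly the same proportion in all 8. Their transcripts share sequence: 2.54% of the 50-base words of HLA-B and 6.79% of those of HLA-C occur in other annotated genes, so part of their reads cannot be assigned with certainty.

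HLA-E, the non-classical heavy chain that displays signal peptides of other class I chains to natural killer cells, had 82.2 and 90.1 CPM in induced mutant libraries, 111, 99.2 and 97.6 CPM in induced wild type libraries and 97.1, 105 and 107 CPM in vehicle libraries. Both induced mutant libraries lay below all 6 libraries of the wild-type line. Of all genes, 11.4% lay wholly below vehicle and 13.2% wholly below induced wild type, and the share below both was not counted. The log2 fold change was -0.25 against vehicle (SE 0.14, 95% interval -0.57 to 0.06) and -0.25 against induced wild type (SE 0.14, -0.56 to 0.06), and both have limma adjusted p-values above 0.99.

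B2M, the light chain common to all class I molecules, was the most abundant of the 9 genes. It had 719.9 and 835 CPM in induced mutant libraries, 924, 757 and 811 CPM in induced wild type libraries and 1039, 926 and 870.0 CPM in vehicle libraries. The induced mutant values lay below the vehicle values, and the induced wild type values overlapped both groups. Its fold change was -0.28 for induced mutant against vehicle (SE 0.17, 95% interval -0.66 to 0.10) and -0.19 for induced wild type against vehicle (SE 0.15, -0.53 to 0.16). The summed level of the 4 class I members was 1593 ± 239 CPM (SD, n = 2) in induced mutant, 1764 ± 158 CPM (n = 3) in induced wild type and 1981 ± 189 CPM (n = 3) in vehicle libraries, with ranges of 1424 to 1762, 1604 to 1920.1 and 1808 to 2182 CPM. In this sum induced mutant lay wholly below vehicle, as did 11.4% of 12454 single genes in all reads. Induced wild type overlapped both.

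HLA-DRA, the nearly invariant alpha chain of HLA-DR, gave the smallest p-value of the 9 genes in all reads. It had 345 and 351 CPM in induced mutant libraries, 437, 391 and 386 CPM in induced wild type libraries and 449, 444 and 418 CPM in vehicle libraries. Both induced mutant values lay below all 6 others, a pattern whose share over all genes was not counted. For induced mutant against vehicle the log2 fold change was -0.33 (SE 0.14, 95% interval -0.64 to -0.01), with an unadjusted limma p of 0.0419 and a Benjamini-Hochberg adjusted limma p of 0.99995 over 12454 genes, which does not pass. Against induced wild type it was -0.22 (SE 0.14, -0.53 to 0.10).

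HLA-DRB1, the polymorphic beta chain that pairs with HLA-DRA, had 50.7 and 64.6 CPM in induced mutant libraries, 66.5, 66.1 and 52.6 CPM in induced wild type libraries and 76.9, 69.2 and 62.3 CPM in vehicle libraries. The groups overlapped, and the fold change against vehicle was -0.27 for induced mutant (SE 0.18, 95% interval -0.67 to 0.13) and -0.17 for induced wild type (SE 0.16, -0.53 to 0.19). HLA-DRB1 is the member whose reads are least certain among the HLA chains, since 9.92% of its 50-base words occur in other genes, 8.64% in HLA-DRB5. HLA-DPA1, the alpha chain of HLA-DP, had 111 and 114 CPM in induced mutant libraries, 144, 117 and 125 CPM in induced wild type libraries and 97.7, 129 and 137 CPM in vehicle libraries. Vehicle A was the lowest HLA-DPA1 library. The induced mutant values lay inside the vehicle range and below the induced wild type values (log2 fold change -0.19, SE 0.18, 95% interval -0.58 to 0.20). Rows of HLA-DPA1 without a symbol were left out, with means of up to 134 CPM, against 122 CPM for the row used.

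CD74, which blocks the class II groove until the complex reaches the endosome, had fold changes close to 0 in all 3 comparisons. It had 704 and 876 CPM in induced mutant libraries, 845, 898 and 709.8 CPM in induced wild type libraries and 753, 911 and 819 CPM in vehicle libraries. All groups overlapped. Its fold change was -0.07 for induced mutant against vehicle (SE 0.18, 95% interval -0.48 to 0.34), -0.02 for induced wild type against vehicle (SE 0.16, -0.38 to 0.34) and -0.05 between the induced groups (SE 0.18, -0.46 to 0.36). The summed level of CD74 and the 3 class II chains was 1308 ± 138 CPM (SD, n = 2) in induced mutant, 1413 ± 120.4 CPM (n = 3) in induced wild type and 1456 ± 89.7 CPM (n = 3) in vehicle libraries.

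CIITA, the coactivator on which class II transcription depends, was the least abundant member and the most variable. It had 16.4 and 10.3 CPM in induced mutant libraries, 15.2, 12.1 and 22.8 CPM in induced wild type libraries and 5.62, 15.1 and 16.5 CPM in vehicle libraries. Vehicle A rested on 50 reads, with an exact Poisson 95% interval of 4.17 to 7.41 CPM that covers counting error only. That interval lies below those of the other 7 libraries, and the groups overlapped in every comparison. Its fold change was 0.19 for induced mutant against vehicle (SE 0.43, 95% interval -0.76 to 1.14), 0.48 for induced wild type against vehicle (SE 0.38, -0.37 to 1.33) and -0.29 between the induced groups (SE 0.43, -1.24 to 0.66), so these libraries do not limit a CIITA difference as tightly as those of the other members. Part of its annotated transcript (15.2% of 50-base words) also occurs in other genes, 14.5% in AC133065.3, so its reads are uncertain.

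**Figure D1:**
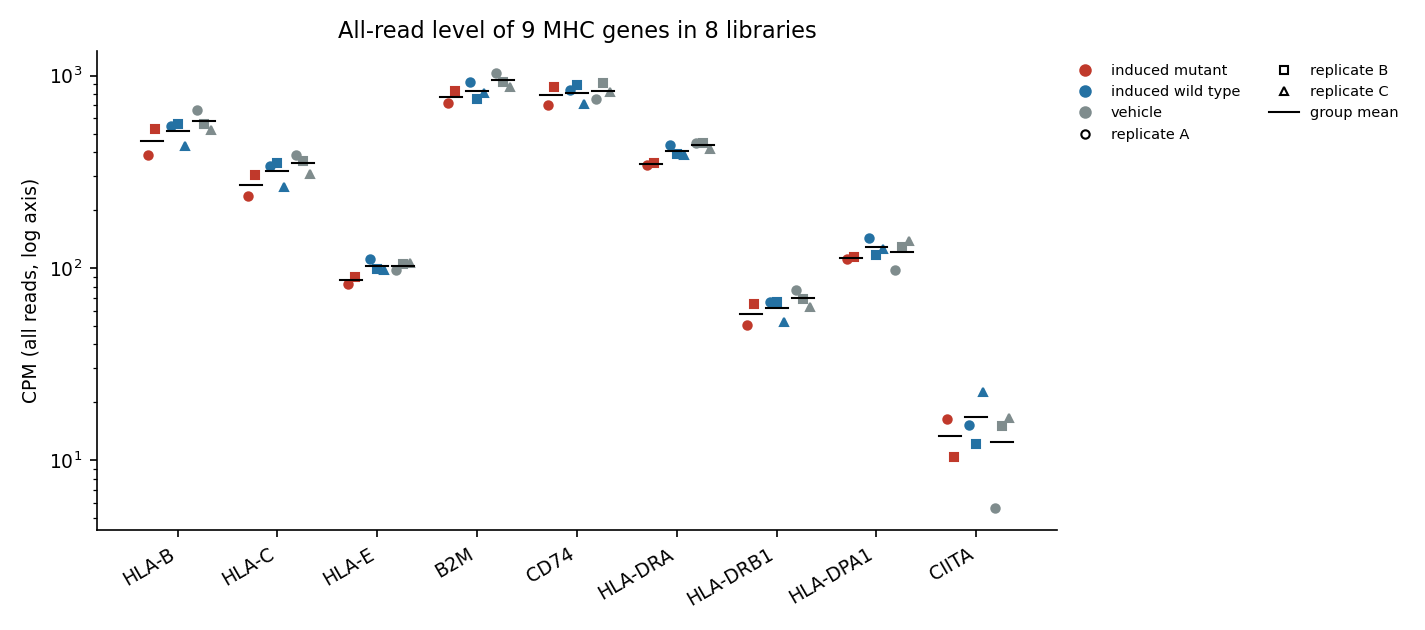
All-read level in CPM (log axis) of the 9 genes in each library, with induced mutant, induced wild type and vehicle from left to right within a gene, symbols for the replicate letter and a line at the group mean. B2M and CD74 sit highest, CIITA lowest and widest, from 5.62 to 22.8 CPM, and for 5 of 9 genes induced mutant and vehicle overlap.

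Counted over the 9 genes in all reads, 0 passed for induced mutant against vehicle, where 0.0321% of 12454 genes passed in either direction. For induced wild type against vehicle 0 of 9 passed (0% of all genes), and for induced mutant against induced wild type 0 of 9 (0.0321% of all genes). At an unadjusted limma p under 0.05 there were 1, 0 and 0 members in these 3 comparisons. On the recovered reads, edgeR and DESeq2 each called 0 members in each comparison, and 0 members had an unadjusted p under 0.05 with either tool. The induced mutant libraries lay wholly below vehicle for 4 of 9 members (HLA-C, HLA-E, B2M and HLA-DRA) and wholly above for 0, where 11.4% of all genes lay wholly below and 4.61% wholly above, or 16% in all. They lay wholly below induced wild type for 3 of 9 members (HLA-E, HLA-DRA and HLA-DPA1), where 13.2% of all genes did, and 15% did not overlap in either direction. Induced wild type and vehicle overlapped for 9 of 9 members, while 4.04% of all genes did not overlap, 2.51% with induced wild type above and 1.53% below.

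The median log2 fold change of the 9 members was -0.27 for induced mutant against vehicle (all genes -0.04), -0.11 for induced wild type against vehicle (all genes 0.09) and -0.19 for induced mutant against induced wild type (all genes -0.12). By sign, 8 of 9, 7 of 9 and 9 of 9 members were below 0 in these comparisons. The last count depends on scaling: after centring each library on its median, or with edgeR or DESeq2 scaling, 6 of 9 were below 0, and with quantile normalization 8 of 9. Under quantile normalization the count for induced wild type against vehicle was 4 of 9 and that for induced mutant against vehicle 6 of 9. The comparisons share vehicle or induced libraries, so they are not independent of each other.

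**Figure D2:**
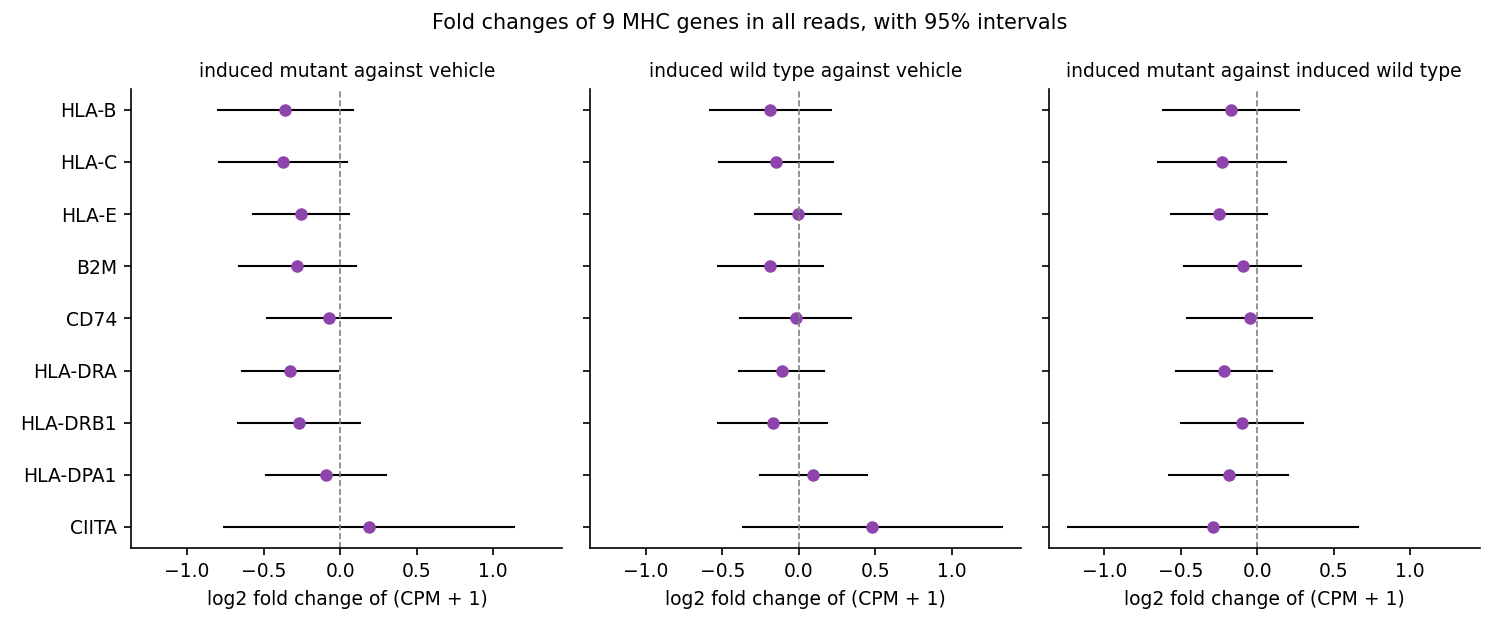
Log2 fold change of (CPM + 1) for the 9 genes in 3 comparisons, with points for limma estimates and lines for 95% intervals. All intervals but that of HLA-DRA for induced mutant against vehicle, -0.64 to -0.01, include 0, and CIITA has the widest.

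Divided by the spliced length of a GENCODE 29 transcript matched by RefSeq accession, the order of levels was B2M at 912 ± 109 CPM per kb (SD, n = 8 libraries), CD74 at 830.2 ± 84.4, HLA-B at 339 ± 54.7, HLA-DRA at 315 ± 32.0, HLA-C at 208 ± 32.5, HLA-DPA1 at 71.6 ± 8.77, HLA-DRB1 at 51.8 ± 6.97, HLA-E at 37.9 ± 3.61 and CIITA at 0.888 ± 0.314. B2M exceeded CD74 in 6 of 8 libraries, HLA-B exceeded HLA-DRA in 6 of 8 and HLA-DPA1 exceeded HLA-DRB1 in 7 of 8, so these neighbours are not separated by their spread, and every other neighbouring pair kept its order in 8 of 8. The region counted by the authors is not given in the sources used here, and the CIITA model is 16059 bases long, so its value per kb is the least certain. In plain CPM, HLA-B, B2M and CD74 stood at percentiles 99.0 to 99.5 of 12454 genes, and CIITA at percentile 59.7.

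The conversion rate, the share of converted bases in a gene's reads, ordered the members differently. Averaged over the 8 libraries it was 9.83% for CIITA, 5.56% for HLA-E, 3.40% for HLA-B, 3.39% for HLA-DRB1, 2.58% for HLA-C, 1.82% for HLA-DRA, 1.27% for CD74, 1.10% for HLA-DPA1 and 0.985% for B2M. HLA-B and HLA-DRB1 changed places in 3 of 8 libraries, and CD74 exceeded HLA-DPA1, and HLA-DPA1 exceeded B2M, in 7 of 8. The median over 8723 genes of at least 5 CPM was 6.24%. CIITA stood at percentile 95.4 of these genes, HLA-E at 40.8, HLA-B at 19.0, HLA-DRB1 at 18.9, HLA-C at 12.6 and the other 4 members between 4.30 and 8.08. Abundant genes had lower rates in general. Among 1524 genes of at least 50 CPM the median was 3.60%, and there HLA-E stood at percentile 73.2, HLA-B at 46.7, HLA-DRB1 at 46.5, HLA-C at 32.6, HLA-DRA at 19.5, CD74 at 10.8, HLA-DPA1 at 8.33 and B2M at 7.09.

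Within class I the conversion rate of each heavy chain was above that of the light chain in every library. HLA-B had 3.92% and 3.15% in induced mutant, 3.73%, 2.98% and 4.01% in induced wild type and 2.30%, 3.25% and 3.88% in vehicle libraries. B2M had 1.15% and 0.780% in induced mutant, 1.17%, 0.753% and 1.28% in induced wild type and 0.702%, 0.779% and 1.26% in vehicle libraries. CIITA had 10.6% and 9.49% in induced mutant, 10.7%, 10.8% and 9.12% in induced wild type and 7.44%, 9.36% and 11.2% in vehicle libraries. For HLA-B and B2M the low values were those of the B libraries of the induced groups and of vehicle A, which also had the lowest library rates, and B2M was as low in vehicle B.

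**Figure D3:**
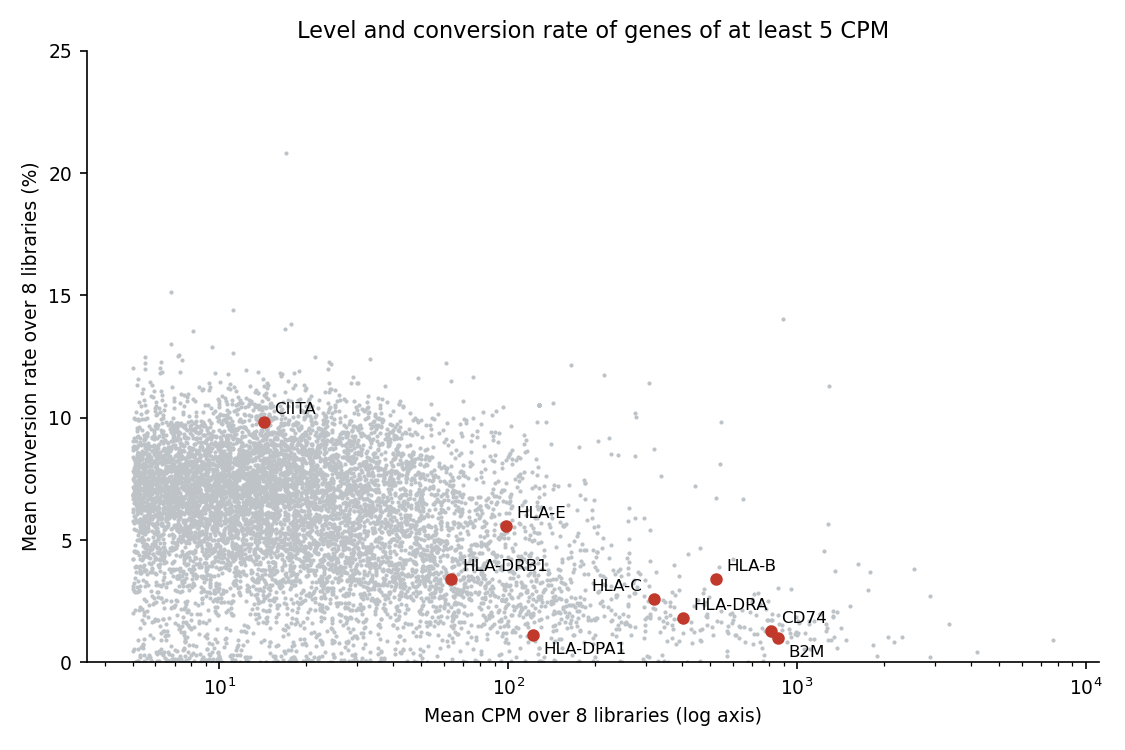
Mean conversion rate in percent against mean CPM (log axis) over the 8 libraries, with 8723 genes of at least 5 CPM in grey, of which 2 lie above the plotted range, and the 9 MHC genes in red. CIITA lies high at 9.83%, HLA-E in the middle, and B2M, CD74, HLA-DRA and HLA-DPA1 near the floor.

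Members differed in how far their rate varied between libraries. The library conversion rate itself varied 1.97-fold from lowest to highest. HLA-DPA1 varied 2.22-fold, CD74 2.06-fold, HLA-DRA 1.83-fold, B2M 1.82-fold, HLA-B 1.74-fold, HLA-C 1.64-fold, CIITA 1.50-fold, HLA-E 1.40-fold and HLA-DRB1 1.20-fold, where the median of 1521 genes of at least 50 CPM with a rate above 0 in every library was 1.75-fold. HLA-DRB1 was at percentile 2.24 of those genes. It had 3.48% and 3.37% in induced mutant, 3.54%, 3.26% and 3.58% in induced wild type and 3.24%, 3.03% and 3.62% in vehicle libraries. A straight line through its 8 rates against the library rate met the axis at 2.69% for a library rate of 0, and HLA-E met it at 2.72%. Lines fitted the same way met it at 6.91% for CIITA, 0.67% for HLA-B, 0.49% for HLA-C and -0.42% to 0.06% for B2M, CD74, HLA-DRA and HLA-DPA1. How fixed T-to-C differences between the cells and the reference genome were handled is not given in the sources used here, and their part in the rates was not tested.

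Conversion rates were compared between groups after each library's median over genes was set to 0. No member passed: 0 of 9 for induced mutant against vehicle, 0 of 9 for induced wild type against vehicle and 0 of 9 between the induced groups, where 0% of 8723 genes passed in each, and 0 members had an unadjusted limma p under 0.05. The log2 fold changes ran from -0.17 for HLA-E (SE 0.11) to 0.11 for HLA-DRA (SE 0.13) for induced mutant against vehicle, from -0.10 for HLA-E (SE 0.09) to 0.10 for CD74 (SE 0.11) for induced wild type against vehicle, and from -0.07 for HLA-E (SE 0.11) to 0.11 for HLA-DRA (SE 0.13) between the induced groups. All 95% intervals lay within -0.41 and 0.42. As a multiple of the library median, the rate of HLA-E was 0.786 and 0.914 in induced mutant libraries, against 0.954, 1.01 and 0.923 in vehicle libraries. That of HLA-DRA was 0.319 and 0.312 in induced mutant libraries, against 0.267, 0.278 and 0.303 in vehicle libraries. On the log2 scale tested these were the 2 members that did not overlap between induced mutant and vehicle, where 23.9% of all genes did not. As a multiple of the library median HLA-B did not overlap either, with its lower induced mutant value and its highest vehicle value both 0.577. HLA-B, higher in induced mutant, was the 1 member that did not overlap between the induced groups (21.5% of all genes), and CD74, higher in induced wild type, the 1 that did not overlap between induced wild type and vehicle on the log2 scale tested (9.35% of all genes).

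**Figure D4:**
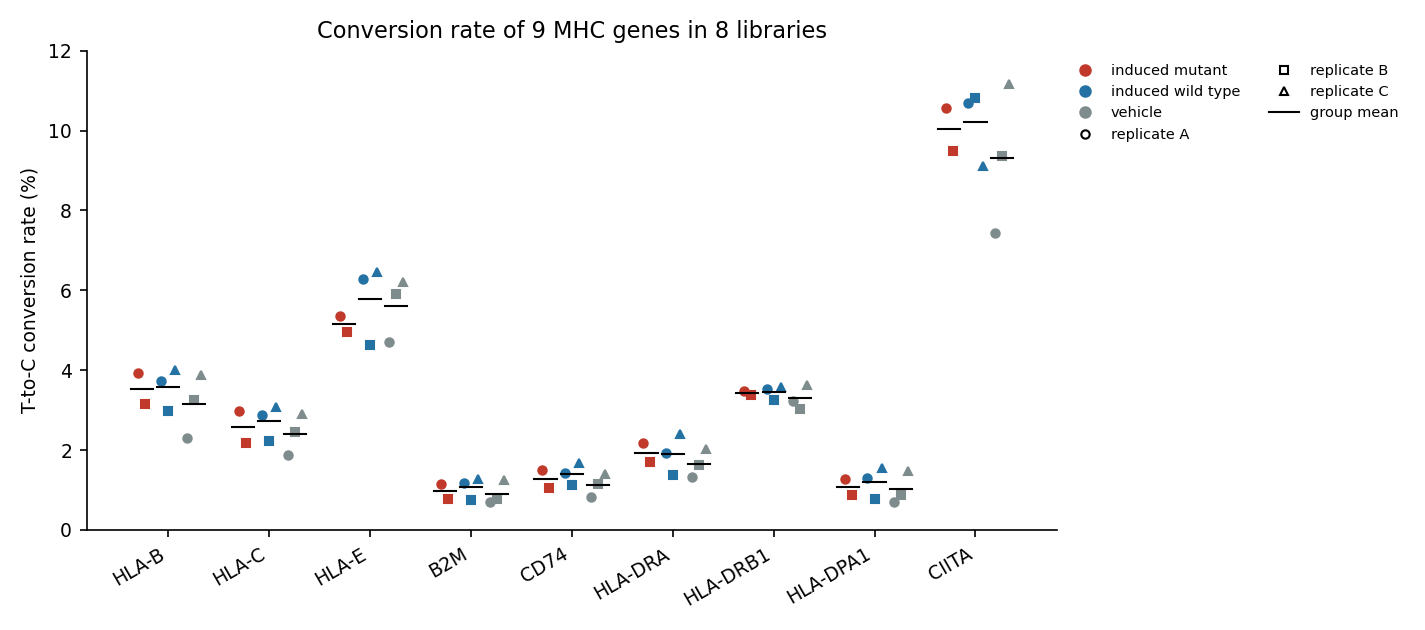
T-to-C conversion rate in percent of the 9 genes in each library, with induced mutant, induced wild type and vehicle from left to right within a gene, symbols for the replicate letter and a line at the group mean. CIITA lies between 7.44% and 11.2%, B2M, CD74 and HLA-DPA1 below 2%, and HLA-DRB1 is nearly flat.

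New RNA, taken as CPM multiplied by the conversion rate, put HLA-B first at a mean of 17.5 converted-base-weighted CPM over the 8 libraries, followed by CD74 at 10.2, B2M at 8.40, HLA-C at 8.07, HLA-DRA at 7.26, HLA-E at 5.52, HLA-DRB1 at 2.15, CIITA at 1.43 and HLA-DPA1 at 1.37. HLA-B had 15.1 and 16.7 in induced mutant and 20.3, 16.8 and 17.3 in induced wild type libraries. In vehicle libraries it had 15.2, 18.3 and 20.3. The product uses the rates as deposited, including those of CIITA, HLA-E and HLA-DRB1, whose lines met the axis at 6.91%, 2.72% and 2.69%. How much of their product follows the labelling was not tested. After the medians of the libraries were set to 0, the groups of each of the 9 members overlapped in each comparison, where 24% of 9652 genes did not for induced mutant against vehicle, 8.04% for induced wild type against vehicle and 16.3% between the induced groups. By limma 0 of 9 members passed for induced mutant against vehicle (0.0414% of all genes), 0 of 9 for induced wild type against vehicle (0.0207%) and 0 of 9 between the induced groups (0%), with 0 members at an unadjusted p under 0.05. HLA-E had the fold change farthest from 0, -0.42 for induced mutant against vehicle (SE 0.23). Before that centring it had 4.40 and 4.47 in induced mutant, 6.99, 4.59 and 6.31 in induced wild type and 4.56, 6.20 and 6.63 in vehicle libraries. Uncentred, which was looked at after seeing the data, 2 of 9 members (HLA-C and HLA-E) lay wholly below vehicle in the induced mutant libraries, as 5.55% of all genes did. Below induced wild type lay 3 of 9 (HLA-B, HLA-C and HLA-E), as 9.25% of all genes did.

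The deposited table of converted reads, in FPKM, gave a different picture of the same genes. CD74 had 68.0 and 94.7 FPKM in induced mutant libraries, 93.3, 115 and 77.9 FPKM in induced wild type libraries and 62.9, 97.7 and 82.1 FPKM in vehicle libraries, far above the other members. HLA-B had 3.17 and 4.00 FPKM in induced mutant libraries, 5.03, 4.84 and 4.78 FPKM in induced wild type libraries and 5.17, 6.14 and 6.23 FPKM in vehicle libraries. CIITA had 7.11 and 4.89 FPKM in induced mutant libraries, 5.56, 6.35 and 8.41 FPKM in induced wild type libraries and 2.62, 4.13 and 4.74 FPKM in vehicle libraries. For HLA-B the 3 groups did not overlap, with induced mutant lowest and vehicle highest, and for CIITA every induced library lay above every vehicle library. B2M ranged from 1.28 to 7.07 FPKM, HLA-C from 1.00 to 4.79 FPKM and HLA-DRB1 from 0 to 1.05 FPKM.

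HLA-E, HLA-DRA and HLA-DPA1 were listed at 0 in all 8 libraries of that table, although they had 9603, 38911 and 12000 reads in the all-read table. The same was true of 220 of the 6993 genes listed and of 36 of the 1326 listed genes of at least 50 CPM, or 2.71%. Of the other MHC genes HLA-F, HLA-H, HLA-DPB1 and HLA-DOA were also at 0. The reason was not tested, and nothing about new transcription of these genes is read from those zeros.

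The 5 members with a mean of at least 1 FPKM (HLA-B, HLA-C, B2M, CD74 and CIITA) were tested. By limma 0 of 5 passed for induced mutant against vehicle, where 0.401% of 5737 genes did, 0 of 5 for induced wild type against vehicle (0% of all genes) and 0 of 5 between the induced groups (0%), with 0, 1 and 0 members at an unadjusted p under 0.05. CIITA had a fold change of 0.70 for induced wild type against vehicle (SE 0.33, unadjusted limma p of 0.0487, adjusted p = 0.625) and 0.54 for induced mutant against vehicle (SE 0.37, adjusted p = 0.642), against a median of 0.23 and 0.17 over all genes. HLA-B had -0.58 for induced mutant against vehicle (SE 0.34, adjusted p = 0.566) and -0.22 for induced wild type against vehicle (SE 0.31, adjusted p = 0.875). The 2 members whose groups did not overlap compare with 28.2% of all genes for induced mutant against vehicle and 12% for induced wild type against vehicle. In these comparisons 20.4% and 10.7% of all genes lay wholly above vehicle, as CIITA did, and 7.81% and 1.26% wholly below, as HLA-B did. HLA-B also lay wholly below induced wild type in the induced mutant libraries, as 11.8% of all genes did, with 5.18% wholly above and 17% not overlapping in either direction.

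The level of some members moved with the library conversion rate, across and within groups. That rate is computed from the same reads, in which each gene's level weights its own conversion. Level and library rate are therefore not independent, which the permutation p-values do not take into account. Over the 8 libraries the correlation of log2(CPM + 1) with the library rate was 0.93 for CIITA (Spearman's rho 0.95, exact two-sided permutation p = 9.92e-05, adjusted over 9 members 0.000893, rho p = 0.00114, adjusted 0.0103). It was -0.82 for HLA-B (rho -0.86, exact permutation p = 0.00985, adjusted 0.0295, rho p = 0.0107, adjusted 0.0482), -0.85 for HLA-DRB1 (rho -0.79, exact permutation p = 0.00600, adjusted 0.0270, rho p = 0.0279, adjusted 0.0628) and -0.77 for HLA-C (rho -0.79, exact permutation p = 0.0237, adjusted 0.0532, rho p = 0.0279, adjusted 0.0628). For the other 5 members r lay between -0.49 and 0.60, with adjusted exact permutation p from 0.203 to 0.984.

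Without vehicle A and induced wild type C, the libraries farthest from the median rate, r was 0.85 for CIITA, -0.63 for HLA-B, -0.63 for HLA-DRB1 and -0.59 for HLA-C. The exact permutation p was then 0.0639 for HLA-B and 0.113 for HLA-DRB1, so with these 6 libraries neither passed, although r kept its sign. After group means were taken out, r over the 8 libraries was -0.92 for HLA-B and -0.91 for HLA-DRB1. CD74, at -0.46 over 8 libraries, had -0.80 without them. Within groups CIITA had the order of the library rate in 3 of 3 groups, and HLA-B and HLA-C the reverse order in 3 of 3, as did 37.9% and 5.90% of 8723 genes. Such relations were common: 75.8% of 8723 genes had a positive correlation with the library rate, 11.7% one at least as high as that of CIITA and 7.34% one at least as low as that of HLA-B. Across genes, which are not independent replicates, the correlation with the library rate was higher for genes of higher conversion (Spearman's rho 0.50). The CIITA spread of 10.3 to 22.8 CPM within the induced groups, and that of 5.62 to 16.5 CPM within vehicle, therefore stand beside library rates of 3.39% to 5.20% and 2.64% to 4.50%, and the part of the library rate in the group differences was not tested.

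**Figure D5:**
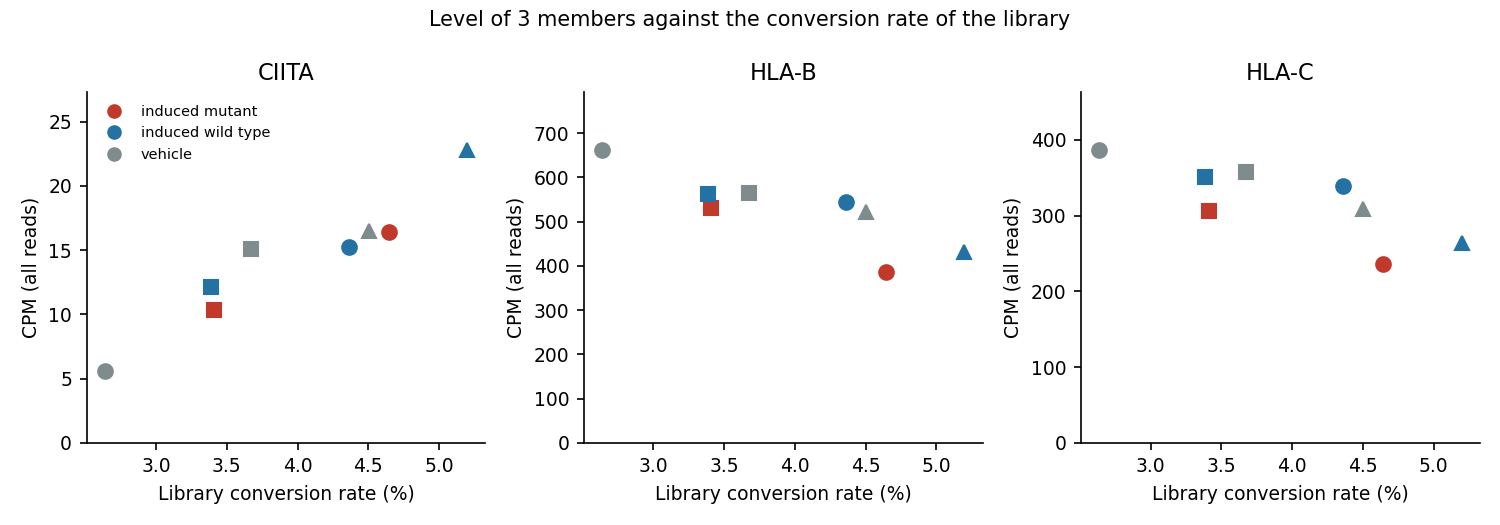
All-read level in CPM of CIITA, HLA-B and HLA-C against the library conversion rate in percent, with 1 point per library, colours for the group and circles, squares and triangles for replicates A, B and C. CIITA climbs from 5.62 CPM at a rate of 2.64% to 22.8 CPM at 5.20%, and HLA-B and HLA-C decline over the same range.

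CIITA had the largest SD of log2(CPM + 1) of the 9 members, 0.55. The 5 genes whose pattern over the 8 libraries was nearest, by the root mean square difference of their deviations from their own mean, were NFE2L1 (0.0502), KIAA1949 (0.0572), TSPYL1 (0.0671), USP3 (0.0707) and NFX1 (0.0713). None of them was a member or on the list of other MHC genes. NFE2L1, at 45.2 and 27.6 CPM in induced mutant, 42.2, 34.7 and 59.3 CPM in induced wild type and 17.3, 41.8 and 42.7 CPM in vehicle libraries, had the same lowest and highest library as CIITA.

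Around the 9 genes, 66 further genes of antigen presentation and its control were tested in all reads, and 0 of 66 passed by limma in any of the 3 comparisons, with 2, 1 and 0 at an unadjusted p under 0.05 for induced mutant against vehicle, induced wild type against vehicle and induced mutant against induced wild type. Of the other MHC genes, 13 of 18 were tested. Values were -0.47 for HLA-H, a class I pseudogene (SE 0.20, adjusted limma p above 0.99) and -0.33 for HLA-DRB5 (SE 0.20) for induced mutant against vehicle, and -0.50 for HLA-DQB1 (SE 0.27) between the induced groups. Of these 13 genes, 11 were below 0 for induced mutant against vehicle, with a median of -0.21, against -0.27 for the 9 members and -0.04 for all genes. HLA-DRB3 and HLA-DRB4 were at 0 in all 8 libraries and HLA-DQA1 averaged 0.376 CPM. Whether reads of these genes could be placed on the genome build used was not tested. Their absence from the cells is therefore not read from these values.

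The class I peptide-loading list (16 of 16 tested) had a median of -0.12 for induced mutant against vehicle and -0.03 for induced wild type against vehicle. PSMB9, an immunoproteasome subunit, had -0.35 for induced wild type against vehicle (SE 0.20), and TAP1, a subunit of the peptide transporter, and NLRC5, the class I coactivator, had -0.22 (SE 0.15) and -0.45 (SE 0.30) between the induced groups. Of the class II processing list (8 of 10 tested), CTSH, a lysosomal protease, had 0.67 for induced mutant (SE 0.29) and 0.63 for induced wild type (SE 0.26) against vehicle, at a mean of 2.17 CPM and with adjusted p-values above 0.99. The interferon list (18 of 21 tested) had a median of -0.0031 for induced mutant against vehicle and 0.15 for induced wild type against vehicle, with -0.54 for STAT2 between the induced groups (SE 0.28).

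The class II transcription list held the only listed gene to pass in any measure. PAX5, the B-lineage factor, had 103 and 57.6 FPKM in induced mutant libraries, 32.0, 57.5 and 67.9 FPKM in induced wild type libraries and 13.1, 28.6 and 26.4 FPKM in vehicle libraries. Its converted reads were higher in induced mutant against vehicle by 1.79 on the log2 scale (SE 0.37, limma adjusted p = 0.0445). It was 1 of 30 genes tested over all lists in that comparison, and 1 of 8 on its own list, against 0.401% of all genes. In all reads PAX5 overlapped between these groups, with 153 and 74.6 CPM in induced mutant and 35.5, 100.5 and 97.3 CPM in vehicle libraries. The call was lost without induced mutant A (adjusted p = 0.879), induced mutant B (0.103), induced wild type A (0.0585), induced wild type B (0.0622) or vehicle B (0.0815), with a smaller pseudocount (0.181) and in a fit of these groups alone (0.0881). PAX5 had 1.18 for induced wild type against vehicle (SE 0.33, adjusted p = 0.478). None of the NF-Y, RFX and CREB genes tested passed in any measure. The conversion rates of the 10 class II transcription genes of at least 5 CPM ran from 5.06% for RFXANK to 9.68% for PAX5, with 6.37% for RFX5, a subunit of the factor that binds the X box. Over the lists, the median rate was 6.96% for 10 class II transcription genes, 7.06% for 12 interferon genes and 3.55% for 16 peptide-loading genes. It was 4.44% for 6 class II processing genes, 5.39% for 12 other MHC genes and 2.58% for the 9 members. Within peptide loading PSME1 had 1.47%, PSMB9 2.80%, PSMB8 3.72%, TAP1 6.18% and NLRC5 7.79%. Among the other MHC genes HLA-DPB1 had 1.39% and HLA-G 15.1%, the last at a mean of 6.82 CPM.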

How the data were processed

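SLAM-seq of NALM6 cells gave 8 libraries in 3 groups, assigned by title. A kit that keeps strand was used, per the labels' protocols. The submitters' processing notes name the build hg19 (GRCh37). The aligner, conversion caller, counted region, strand setting and masking of genomic variants: not given in the sources used here.

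All-read values as deposited, named CPM per the file headers, were used as a signal per RefSeq transcript, and in each library 100.0% of values were whole multiples of a single read within 0.1 read, which gave the depth and the recovered reads. The deposited conversion values are a fraction per transcript, printed as percent. Between 35.0% and 47.2% of rows with exactly 1 read had fractions strictly between 0 and 1, so the fraction is one of bases, not reads. No base coverage is given, so its depth is unknown. The converted reads were deposited by the authors as FPKM per transcript. Each gene took its row with the highest mean. Of 61177 rows, 25396 had no symbol and 24843 of these were named through RefSeq accessions. Members were taken by the symbol in the file only, which left out 22 unsymbolled rows of member genes, among them rows of HLA-DPA1 of up to 134 CPM.

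Tests used limma 3.58.1 (R 4.3.3, trended variance) on log2(CPM + 1) and log2(FPKM + 1) for means of at least 1, log2(new RNA + 0.1) for means of at least 0.2 and log2(conversion percent + 0.5) for means of at least 5 CPM, the last 2 with each library's median set to 0. All 8 libraries entered 1 model with no covariate, and p-values were adjusted by the Benjamini-Hochberg method over every gene tested, passing below 0.05. These scales understate the fold changes of low genes. On recovered reads, edgeR 4.0.16 and DESeq2 1.42.0 were alternatives, as were other pseudocounts, filters and scalings, leaving out each library and a replicate block. The fits were tested on simulated data with planted changes larger than any member fold change here. That test does not show how well changes of the size seen here would be found. Correlations used exact permutation tests (Python 3.11.15, scipy 1.17.1), with their alternatives chosen after seeing the data. Transcript lengths and shared 50-base words came from GENCODE 29. Intervals on reads cover counting error only.

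The members, gene lists and marker lists were chosen with earlier results of these data known. Named genes were the 9 members, each listed gene that passed, up to 4 per list with the smallest p in all reads (1 gene so named is not reported here), and the 5 genes most like CIITA. The conversion rates of list genes and the genes at 0 were chosen after their values were seen.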

Additional observations from a re-analysis of the deposited data

How the results depend on the processing

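No member passed in any of 216 fits, which cover 4 measures, 3 comparisons and all alternatives, and the smallest adjusted p of a member was 0.226. Of 96 member fold changes, 29 exceeded their SE, and 4 of these changed sign, each when median centring was switched, all for induced wild type against vehicle: CD74 in converted reads to -0.10, and in uncentred values HLA-DRA new RNA to 0.066, HLA-E new RNA to 0.037 and HLA-E conversion to 0.038. Of the 67 within their SE, 59 changed sign in at least 1 alternative. Whether the replicate letters pair the libraries was not settled. Same-letter deviations from the group mean correlated from -0.64 to 0.65, and different-letter deviations across groups reached -0.71 and 0.71. The deviations of the 2 induced mutant libraries mirror each other by construction, so these correlations cannot decide it. With the letter as a replicate block 0 members passed, while the genes called in converted reads for induced mutant against vehicle numbered 149, against 23. Without the block, calls over all genes for induced mutant against vehicle ran from 0 to 75 in all reads (4 in the reported fit, 75 with DESeq2), 0 to 93 in converted reads (93 with quantile normalization, 68 without vehicle C), 0 to 80 in new RNA (4, and 80 without a filter) and 0 to 10 in conversion (0, and 10 without a filter). For induced wild type against vehicle they ran from 0 to 2, 0 to 1, 1 to 10 and 0 to 2, and between the induced groups from 0 to 13, 0 to 3, 0 to 2 and 0 to 9. Leaving out 1 library, r with the library rate ran from 0.90 to 0.96 for CIITA, -0.90 to -0.72 for HLA-B (exact permutation p = 0.0659 without vehicle A) and -0.90 to -0.76 for HLA-DRB1. The 2 induced mutant libraries limit every comparison with that group, and 50 to 314 reads limit CIITA.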
